A study of Mus musculus with 11 samples.

Results

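The solute carrier (Slc) genes were examined in RNA-seq data of EmGFP-positive cells that had been sorted from mouse striata after knockdown of the transcription factor NF-Y. All gene symbols of the deposited table that start with Slc were taken, including the Slco genes of organic anion transporters, which gave 47 of 1767 genes. One of them, Slc9a3r1, encodes a scaffold protein (NHERF1) that binds a sodium/proton exchanger and is not itself a transporter. The 47 genes belong to 23 numbered families, of which 10 are represented by a single gene, and they were sorted by family and substrate into 11 substrate classes.

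Wild-type male C57BL/6 mice received bilateral striatal injections of an AAV vector at 6 weeks of age, and living EmGFP-positive, propidium iodide-negative cells were sorted 3 weeks later. The vector drove EmGFP from the ubiquitous CAG promoter together with a non-targeting miRNA in 6 samples (NT2 control) or with miRNAs against NF-YA and NF-YC in 5 samples (YAYC knockdown). The promoter is not specific to neurons, the sort used EmGFP and no cell type marker, and every sample carries AAV, EmGFP and an artificial miRNA. The table holds only genes that the authors had selected at a p-value under 0.05 for knockdown against control, so each Slc gene was present because of its difference in the same comparison, and Slc genes outside it were not analysed here.

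Solute carriers are membrane proteins that move amino acids, transmitters, sugars, ions, metals, vitamins and drugs across the plasma membrane or the membranes of organelles, mostly by coupling to ion gradients or by exchange. In the striatum, astrocytes clear glutamate and GABA from the synapse with carriers of families 1 and 6. Brain endothelial cells carry large amino acids, organic anions, vitamins and iron across the blood-brain barrier with others. NF-Y is a trimer that binds the CCAAT box in promoters.

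Normalized counts, which are the estimated counts of the authors divided by a TMM factor per sample, were compared with edgeR's quasi-likelihood test. A gene was called when its p-value, Benjamini-Hochberg adjusted over the 1767 listed genes, was under 0.05. All these genes had been selected for the same comparison, so adjusted values, also of permutation tests, are too lenient to be false discovery rates. Of the 47 Slc genes 27 (57.4%) were called, against 60.3% of all listed genes, and 16 of them (34.0%) were lower and 11 (23.4%) higher in the knockdown samples, against 21.3% and 39% of all listed genes. Leaving out 1 sample moved the lower calls most, to 9 Slc genes without NT2 control replicate 21 and 10 without YAYC knockdown replicate 4, and those of the table from 377 to 210 and 208. With each sample left out in turn, 15 of the 27 genes were called in all 11 fits, whereas Slc16a13, Slc30a10, Slc5a7, Slc6a13, Slc7a5, Slc38a3, Slc39a4 and Slc19a3 were called in 4 or fewer. The two-sided exact permutation p, adjusted over the 1767 genes, was under 0.05 for 16 of the 27 and from 0.054 to 0.088 for the other 11, among them Slc6a11, Slc6a9, Slc6a13, Slc38a3, Slc30a10, Slc39a2, Slc39a4, Slc16a13, Slco1a4 and Slc19a3. A log2 fold change below 0 was found for 32 Slc genes (68.1%), against 57.5% of the table. Its median was -0.26 over the Slc genes and -0.13 over the table, and no test of that difference was made. The p and fold thresholds of the study (unadjusted p-value under 0.05 and fold above 1.2) were also applied to the edgeR values. With them 19 Slc genes were lower and 13 higher, against 25.9% and 40.7% of the table. The study's gene filters on read count and on non-neuronal expression were not applied. These calls therefore include Slc7a15 (lower) and Slco1a1 (higher), whose counts are near 0. With the authors' own scaling factors, which shifted all log2 fold changes of the table by a median of -0.13, 37 Slc genes (78.7%) were called against 79.5% of the table, and 27 (57.4%) were lower and 10 (21.3%) higher, against 47.3% and 32.2% of all listed genes. All 16 genes called lower and 10 of the 11 called higher were called with that scaling as well, the exception being Slc5a7. A further 11 genes, already below 0 with TMM factors, were called lower with it. No Slc gene changed direction between TMM, DESeq2's size factors and the authors' factors. Called log2 fold changes ran from -1.27 to -0.36 among the lower and from 0.44 to 1.28 among the higher genes. In bulk RNA of sorted cells, fewer cells of a type and less RNA per cell cannot be told apart.

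**Figure D1:**
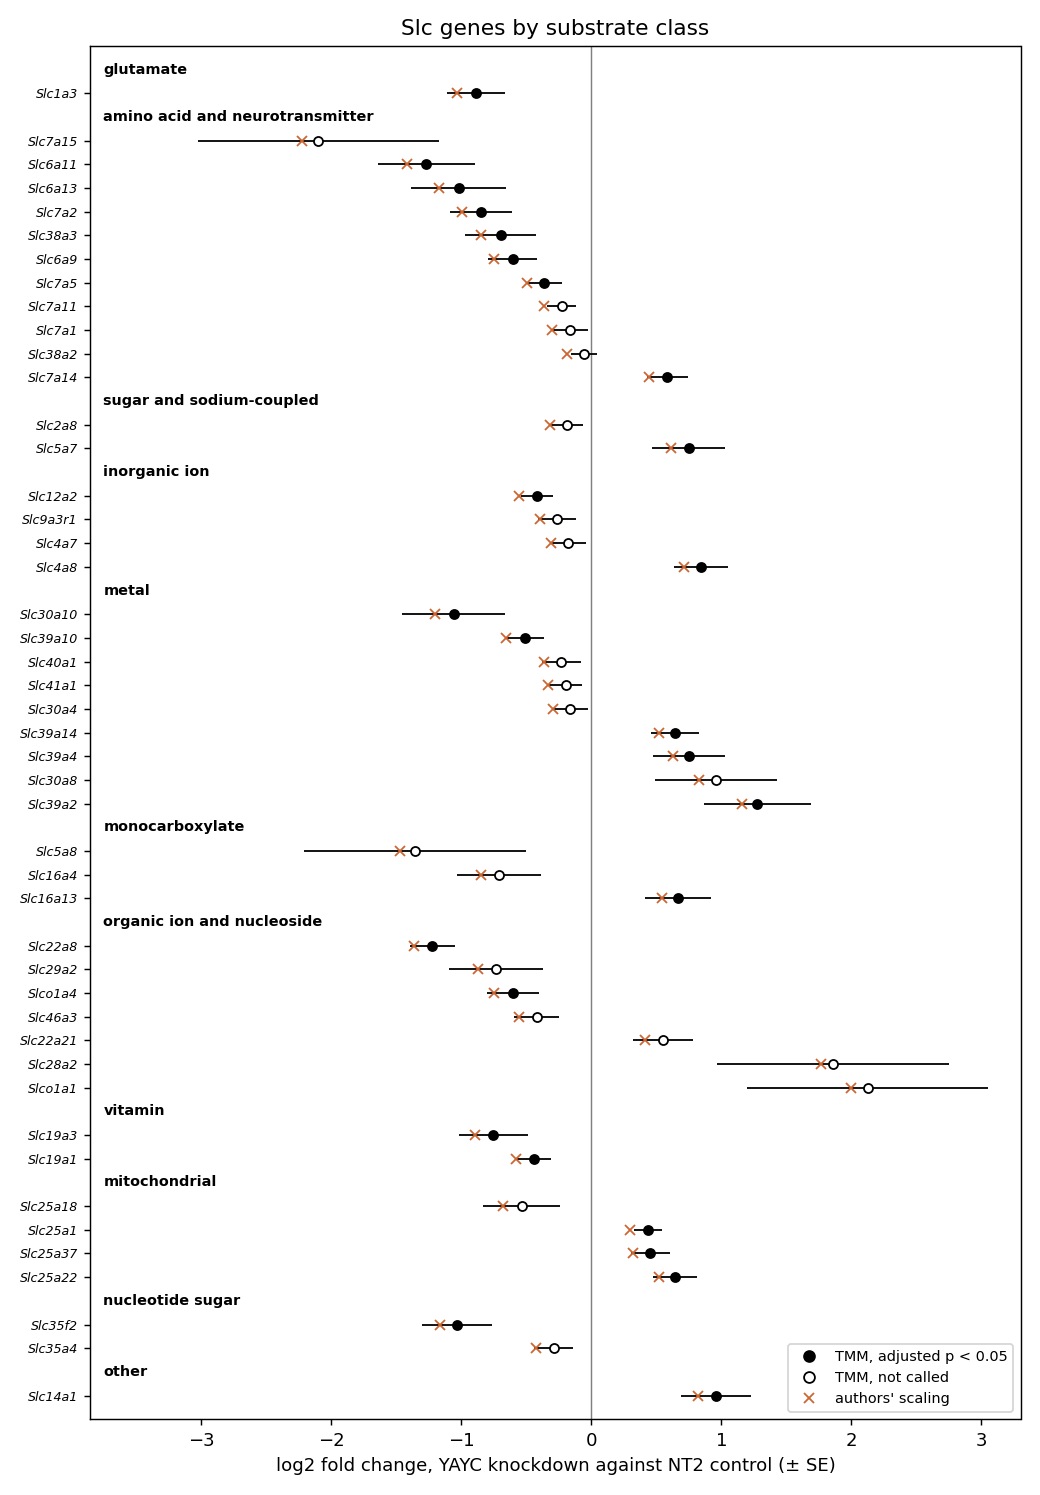
The log2 fold change (x axis, YAYC knockdown against NT2 control) with its standard error is plotted for 46 Slc genes, grouped by substrate class. Filled points passed an adjusted p-value of 0.05 with TMM factors, open points did not, and crosses give the value with the authors' scaling, which lies to the left of every point. The fitted values of Slc7a15, Slc30a8, Slc5a8 and Slco1a1, whose counts are near 0, depend on the prior count. Slc6a11, Slc6a13, Slc6a9 and both vitamin carriers lie left of 0, and the 3 called mitochondrial carriers lie right of it.

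Markers of other cell types could be read only where the table held them, and those had been selected for a difference between the groups. For the marker calls that follow, 21.3% of all listed genes were called lower and 39% higher. No such share stands beside the numbers of markers found, because genes outside the table were not analysed. Of 18 astrocyte markers without an Slc symbol, 7 were in the table and 6 were called lower, and their summed normalized counts ranged over 19816 to 62156 in the control and 15142 to 27524 in the knockdown samples. Of 15 endothelial markers, 12 were in the table and 7 were called lower, with sums of 10553 to 15868 in the control and 6793 to 11315 in the knockdown samples. The 3 listed markers of mural cells and fibroblasts, of which 2 were called lower, summed to 623 to 1200.4 in the control and 390.2 to 636 in the knockdown samples. The oligodendrocyte marker Ugt8a, the one of 15 in the table, was called lower at 9979 to 20617 against 10136 to 11871, and the microglia marker P2ry12, the one of 12, was not called. Foxj1, the one of 7 choroid plexus and ependymal markers in the table, was called higher (log2 fold change 0.80). None of these markers was at 0 in any sample, and 0 of 8 neuronal and 0 of 15 projection neuron markers were among the genes analysed. As the table holds only genes selected for a difference, this absence is no measure of neurons among the sorted cells. A glial score was the mean centred log2 value of 9 glial markers per sample, of which 7 were astrocyte markers. It ranged from -0.58 to 1.08 in the control and from -0.96 to -0.04 in the knockdown samples, which overlapped only through control replicate 3. A vascular score over 15 markers ranged from 0.0033 to 0.60 and from -0.58 to -0.051, so that it did not overlap between the groups and cannot be told apart from the knockdown. NT2 control replicate 3 stood apart, with the lowest glial score of the controls. It also had the lowest sum of listed counts (1581757) and the lowest TMM factor (0.645) of all 11 samples. It reached or passed the nearest knockdown sample for 16 of the 27 called Slc genes, whereas control replicate 7 did so for 0. Without it, 18 Slc genes were called lower and 11 higher. The targeted gene Nfyc had a log2 fold change of -0.19 (SE 0.15, adjusted p = 0.26 from edgeR) and was not called. With the authors' scaling Nfyc was -0.32 (adjusted p = 0.053 from edgeR), just outside the threshold. Nfya and Nfyb were not analysed here, and the extent of the knockdown was not tested.

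**Figure D2:**
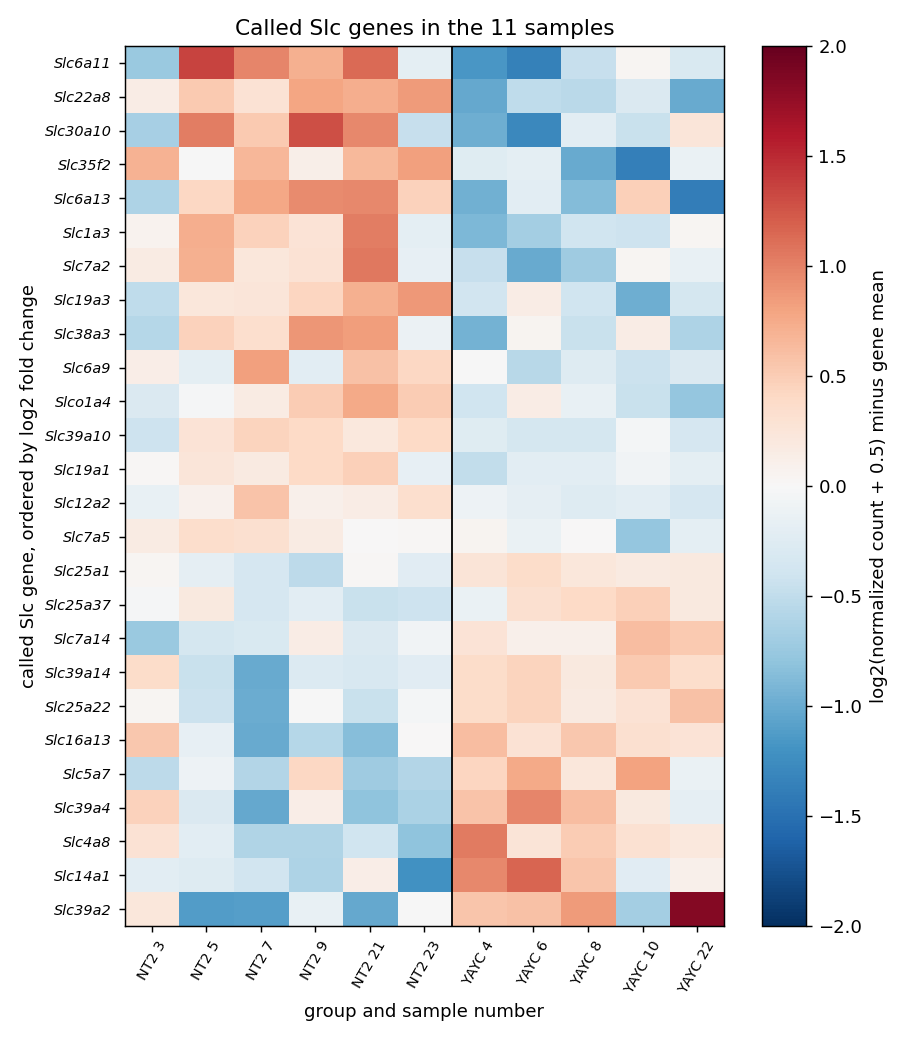
Each row is 1 of 26 called Slc genes, ordered by log2 fold change, and each column a sample with its number. Colour gives log2(normalized count + 0.5) minus the mean of the gene. The upper 15 rows are mostly red in the NT2 control samples and blue in the knockdown samples, the lower 11 rows show the reverse, and NT2 control replicate 3 is blue in many of the upper rows.

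The promoters of the Slc genes were searched for the CCAAT box, because NF-Y was the factor knocked down. RefSeq promoters from 250 bases before to 50 after the start of a gene (GRCm38.p6) were found for 33 of the 47 genes, and CCAAT or its reverse complement ATTGG was present in 17 of them (51.5%), against 44.4% of the 1344 listed genes and 41.1% of 27025 mouse genes with such a promoter. The letters were found for 4 of 11 genes called lower, 3 of 6 called higher and 10 of 16 not called. The stretches upstream of the start that hold them in the 7 called genes are printed here with the motif in capitals, as these are the sites that a reader would compare with the direction of change. The last line gives the 100 bases before the start of Slc22a8, the called Slc gene with the smallest p-value, in which neither motif occurred.
Slc1a3 (lower), chr15:8710999-8711057, minus strand: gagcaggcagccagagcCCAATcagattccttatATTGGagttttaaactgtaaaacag
Slc1a3 (lower), chr15:8710855-8710899, minus strand: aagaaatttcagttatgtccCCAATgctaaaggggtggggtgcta
Slc6a13 (lower), chr6:121300605-121300649, plus strand: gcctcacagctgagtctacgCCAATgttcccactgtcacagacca
Slc30a10 (lower), chr1:185454751-185454795, plus strand: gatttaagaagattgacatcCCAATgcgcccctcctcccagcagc
Slco1a4 (lower), chr6:141856384-141856428, minus strand: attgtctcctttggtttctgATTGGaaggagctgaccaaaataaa
Slco1a4 (lower), chr6:141856285-141856329, minus strand: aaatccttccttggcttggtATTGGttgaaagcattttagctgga
Slc4a8 (higher), chr15:100761704-100761746, plus strand: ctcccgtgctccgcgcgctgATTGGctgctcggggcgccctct
Slc25a1 (higher), chr16:17928320-17928364, minus strand: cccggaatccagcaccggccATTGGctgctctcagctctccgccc
Slc25a22 (higher), chr7:141435383-141435427, minus strand: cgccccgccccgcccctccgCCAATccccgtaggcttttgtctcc
Slc22a8 (lower), chr19:8593082-8593181, plus strand: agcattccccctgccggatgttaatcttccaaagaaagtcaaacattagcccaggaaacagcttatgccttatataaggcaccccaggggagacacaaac

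Counted to its first base, with the start of the gene as 0, the motif lies at -233, -216 and -72 from the start of Slc1a3, at -188 and -89 in Slco1a4 and at -77 in Slc30a10, and it was found in 2 of the 3 promoters of Slc6a13, at -115 in the window shown and at position 41 after a start. Among the genes called higher it lies at -125 and at position 36 in Slc25a1, at -23 and at position 1 in Slc4a8, and at -32 in 1 of the 3 promoters of Slc25a22. Matches of 5 letters are a description of the sequence and not of binding.

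Slc1a3 encodes the glutamate and aspartate transporter GLAST of astrocytes and lies on chromosome 15 from 8584124 to 8660807 (mm9, the build named in the submitters' processing notes, also for the gene positions that follow). Per kilobase of the longest GENCODE transcript it was the most abundant Slc gene of the table, at 3878 normalized counts in the control samples, ahead of Slc12a2 at 1639 and Slc38a2 at 1424. Its normalized count was 11024 to 25538 (median 16265) in the control samples and 6775, 7865, 9529.9, 9510.0 and 12903 in the knockdown samples. The groups overlapped only through control replicate 23, the lowest control, and knockdown replicate 22, the highest knockdown sample. The log2 fold change was -0.88 (SE 0.22, adjusted p = 0.014 from edgeR), and a two-sided exact permutation test over all divisions of the 11 samples into 6 and 5 had p = 0.0087 (0.038 adjusted over the 1767 genes). Once the glial score was added as a covariate, the value was -0.30 and Slc1a3 was not called.

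The 12 carriers of amino acids and amine transmitters formed the largest class, of which 7 were called lower, 1 was called higher and 4 were not called (21.3% of the table were called lower and 39% higher, also for the classes that follow). Slc6a11, Slc6a13 and Slc6a9 of family 6, the sodium- and chloride-coupled transmitter carriers, were among the lower genes. Slc6a11, the GABA carrier of astrocytes, had a normalized count of 366 to 1576 (median 1108) in the control samples and 274, 240.5, 446, 633 and 497 in the knockdown samples. Control replicates 3 and 23 fell among the knockdown samples and the other 4 controls lay above all of them. Its log2 fold change of -1.27 (SE 0.37, edgeR adjusted p = 0.02) was the lowest of all called Slc genes. Slc6a9, the glycine transporter GlyT1, ranged over 1924 to 3930.1 (median 2721) in the control samples and was 2227, 1527, 1865, 1667 and 1821 in the knockdown samples, which gave -0.60 (SE 0.19, edgeR adjusted p = 0.023). Here control replicates 5 and 9 fell inside the knockdown range instead. Slc6a13, the GABA and taurine carrier of meningeal and perivascular cells, was 135 ± 44.0 (SD, n = 6) in the control and 66.6 ± 36.7 (SD, n = 5) in the knockdown samples and had a log2 fold change of -1.02 (SE 0.36, edgeR adjusted p = 0.033). The spread between control samples was wide for Slc6a11, whose highest control was 4.31 times the lowest. Adding the glial score as a covariate gave log2 fold changes of -0.01 for Slc6a11, -0.41 for Slc6a13 and -0.56 for Slc6a9, none of them called.

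Family 7 holds the cationic and large neutral amino acid carriers, and its 6 listed members went both ways. Slc7a2, the cationic amino acid transporter CAT2, was 376 to 875 (median 503) in the control samples and 304, 209.9, 256, 432 and 382 in the knockdown samples, with a log2 fold change of -0.85 (SE 0.24, edgeR adjusted p = 0.018). Control replicate 23, the lowest control, was within the knockdown range, and the remaining 5 controls lay above it. Slc7a5, the large neutral amino acid carrier LAT1 of the blood-brain barrier, was 2073 ± 208 (SD, n = 6) in the control and 1615 ± 331 (SD, n = 5) in the knockdown samples, with a log2 fold change of -0.36 (SE 0.14, edgeR adjusted p = 0.042). Slc7a14, an intracellular member of the cationic carrier branch, was the one gene of the class that was called higher. It was 441 to 819.6 (median 599) in the control samples and 892, 797, 793, 1136 and 1069 in the knockdown samples, with a log2 fold change of 0.59 (SE 0.16, edgeR adjusted p = 0.016). Control replicate 9 was the one control that reached the knockdown range. With the glial score as a covariate Slc7a14 was 0.78 and was called (edgeR adjusted p = 0.046), the only Slc gene called higher in that fit. Slc7a11, the cystine and glutamate exchanger xCT, and Slc7a1, the cationic amino acid transporter CAT1, had log2 fold changes of -0.23 and -0.17 and did not pass the test (edgeR adjusted p = 0.087 and 0.28). Slc7a15 was close to 0, at 0 to 10.3 normalized counts in the control and 0 to 1.78 in the knockdown samples, and no fold change is given. In family 38, the glutamine carrier Slc38a3 (SNAT3) was 1533 ± 543 (SD, n = 6) in the control and 947 ± 296 (SD, n = 5) in the knockdown samples, with a log2 fold change of -0.70 (SE 0.27, edgeR adjusted p = 0.042), and was not called with the sample number range (3 to 10 against 21 to 23) as a covariate (edgeR adjusted p = 0.052). The abundant small neutral amino acid carrier Slc38a2 (SNAT2) had -0.06 (SE 0.10, edgeR adjusted p = 0.6) and was not called.

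**Figure D3:**
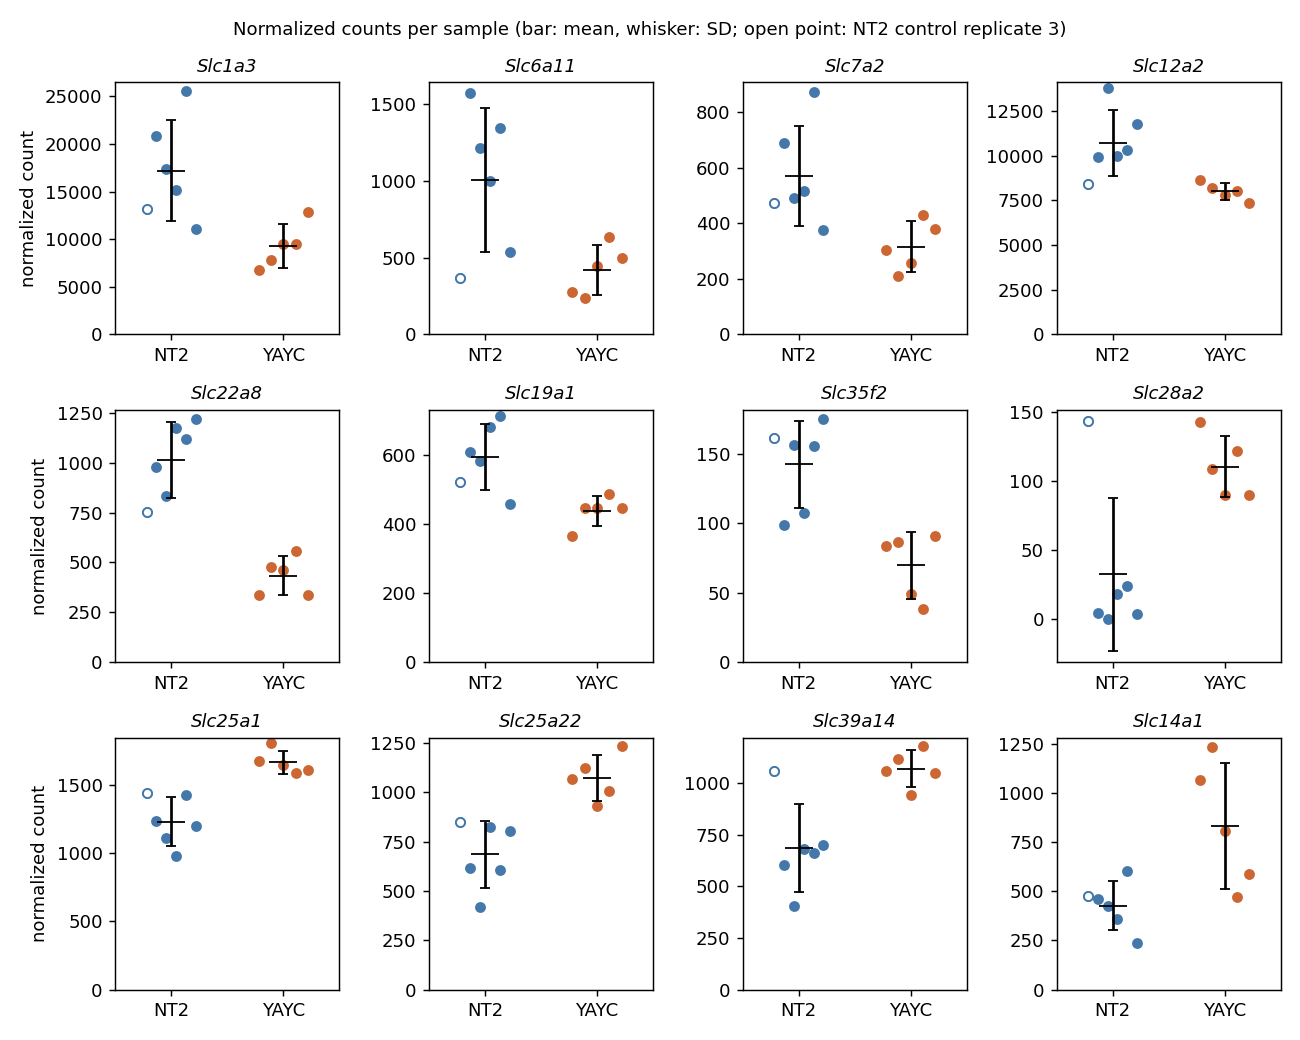
Normalized counts (y axis, linear) of 12 Slc genes are plotted for each of the 6 NT2 control and 5 YAYC knockdown samples, with bars at the mean and whiskers of 1 SD. The open point is NT2 control replicate 3, which at 143 for Slc28a2 and 1061 for Slc39a14 lies with the knockdown samples. No control overlaps a knockdown sample for Slc22a8, Slc35f2, Slc25a1 and Slc25a22.

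The organic ion and nucleoside class had 7 members, and 2 were called lower and 0 higher, with 4 genes below and 3 above a log2 fold change of 0. Slc22a8 (OAT3), an organic anion exchanger of brain endothelium, choroid plexus and kidney that lies on chromosome 19 from 8665744 to 8686325, was 753 to 1220.4 (median 1049) in the control samples and 334, 478, 464, 556 and 338 in the knockdown samples. Every knockdown sample was below every control. Its log2 fold change of -1.22 (SE 0.17, edgeR adjusted p = 0.0014) had the smallest p-value of the Slc genes, and its two-sided exact permutation p was 0.0022, the smallest that the design can give (0.036 adjusted over the 1767 genes). It was the one Slc gene still called lower with the glial score as a covariate, at -1.07 (edgeR adjusted p = 0.026). With the vascular score Slc22a8 was -0.56 and was not called. The vascular score did not overlap between the groups, so it cannot be told apart from the knockdown. With it, 1 and 3 of all listed genes were called lower and higher. Slco1a4 (OATP1A4), another organic anion carrier of the barrier, was 2003 to 4135 (median 3111) in the control samples and 1871, 2725, 2208, 1795 and 1436 in the knockdown samples, which overlapped, with a log2 fold change of -0.60 (SE 0.20, edgeR adjusted p = 0.027). With the vascular score as a covariate the value of Slco1a4 was 0.35, not called. Its neighbour Slco1a1 was at 0 to 1.21 normalized counts in the control and 0.527 to 4.98 in the knockdown samples, too few to compare, and reads of these paralogues may be shared between them. Of 12 Slc genes known from brain endothelium and the barrier, 6 were in the table, all 6 had a log2 fold change below 0, against 57.5% of the table, and 4 were called lower (Slc22a8, Slco1a4, Slc7a5 and Slc19a3), against 21.3%. Of 8 known from astrocytes, 4 were in the table, with Slc1a3 and Slc6a11 called lower, Slc14a1 called higher and Slc25a18 not called.

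Nucleoside carriers were spread widely over the samples. Slc28a2, the concentrative purine nucleoside carrier CNT2 on chromosome 2 from 122252213 to 122286866, was chosen, like Slc29a2, for values per sample after these had been seen. In the knockdown samples it was 142, 108, 89.8, 121 and 89.9, whereas control replicates 5, 7, 9, 21 and 23 had 4.15, 0, 18.2, 23.9 and 3.28. Control replicate 3 had 143, the highest of all 11 samples. The log2 fold change was 1.86 (SE 0.89, edgeR adjusted p = 0.083) with all samples and 3.42 (SE 0.66, edgeR adjusted p = 0.0024) without control replicate 3, so that 1 library decides the call, and over all other settings tried the adjusted p ran from 0.071 to 0.96. The equilibrative carrier Slc29a2 (ENT2) showed its spread among the knockdown samples, at 132, 21.1, 72.6, 145 and 78.2, against 136 to 173 (median 141) in the control samples, and its log2 fold change of -0.73 (SE 0.36, edgeR adjusted p = 0.091) did not pass the test. Slc22a21, a carnitine carrier, and Slc46a3, a lysosomal member, had 0.55 (SE 0.23, edgeR adjusted p = 0.054) and -0.42 (SE 0.17, edgeR adjusted p = 0.052), both just outside the threshold.

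Both vitamin carriers were lower. Slc19a1, the reduced folate carrier on chromosome 10 from 76495484 to 76513177, was 458 to 712 (median 594) in the control samples and 366, 445, 444, 487 and 446 in the knockdown samples. Control replicate 23 alone fell within the knockdown range. The log2 fold change was -0.44 (SE 0.13, edgeR adjusted p = 0.021), the two-sided exact permutation p was 0.0087, and the value with the glial score was -0.19, not called. Slc19a3, a thiamine carrier, was 88.3 to 229.6 (median 159) in the control samples and 95.8, 139, 94.7, 63.2 and 97.8 in the knockdown samples, with a log2 fold change of -0.75 (SE 0.26, edgeR adjusted p = 0.031). Here control replicate 3 alone was within the knockdown range, and control replicate 23, the lowest control for Slc19a1, was the highest.

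Of the 4 mitochondrial carriers of family 25, which exchange metabolites across the inner membrane, 3 were called higher and 0 lower, also with the authors' scaling, against 39% and 21.3% of the table with TMM factors. Slc25a1, the citrate carrier that supplies cytosolic acetyl-CoA for lipid synthesis and lies on chromosome 16 from 17925304 to 17928312, was 977 to 1438 (median 1218) in the control samples and 1673, 1807, 1649, 1589 and 1611 in the knockdown samples. Slc25a22, a glutamate carrier, was 417 to 849 (median 709) in the control samples and 1070.2, 1122, 931, 1006 and 1237 in the knockdown samples. For both genes every knockdown sample lay above every control. Their log2 fold changes were 0.44 (SE 0.11, edgeR adjusted p = 0.014) and 0.65 (SE 0.17, edgeR adjusted p = 0.015), with two-sided exact permutation p-values of 0.0065 and 0.0043. Slc25a37 (mitoferrin-1), which imports iron, was 367 to 569 (median 412) in the control samples and 455, 623, 656, 692 and 568 in the knockdown samples, with overlap and a log2 fold change of 0.46 (SE 0.15, edgeR adjusted p = 0.025). Slc25a18, the second glutamate carrier, which is known from astrocytes, had -0.53 (SE 0.30, edgeR adjusted p = 0.12) and was not called. Over all 47 Slc genes the groups did not overlap for 4 genes (8.51%), Slc22a8 and Slc35f2 below and Slc25a1 and Slc25a22 above the controls, against 13.9% of the table, 2.43% below and 11.4% above.

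The metal carriers were divided. Zinc importers of family 39 were called in all 4 cases, 1 lower and 3 higher, against 60.3% of the table called in either direction, and of the 3 members of family 30, which export zinc or manganese from the cytosol, 1 was called lower. Slc39a10 (ZIP10) was 763 to 1379.9 (median 1283) in the control samples and 859.8, 791, 795, 985 and 799 in the knockdown samples, with a log2 fold change of -0.51 (SE 0.14, edgeR adjusted p = 0.019). Control replicate 3 was below every knockdown sample, and the other 5 controls were above all of them. Slc39a14 (ZIP14), which also carries manganese and iron, went the other way and was 407 to 1061 (median 669.6) in the control samples and 1061, 1117, 942, 1183 and 1047 in the knockdown samples, which gave a log2 fold change of 0.65 (SE 0.19, edgeR adjusted p = 0.02). Again control replicate 3 was the one control in the knockdown range. Slc39a4 (ZIP4), best known from intestinal zinc uptake, had 184 to 519 (median 275) in the control and 556, 736, 574, 432 and 331 in the knockdown samples, and Slc39a2 (ZIP2) had 39.4 to 101 (median 59.9) and 126, 129.7, 155, 53.4 and 309. Both overlapped between the groups, with log2 fold changes of 0.75 (SE 0.28, edgeR adjusted p = 0.036) and 1.28 (SE 0.41, edgeR adjusted p = 0.025), and knockdown replicate 22 held the highest value of Slc39a2 and the lowest knockdown value of Slc39a4. Slc30a10 (ZnT10), a manganese exporter, was 60.8 to 238 (median 164) in the control samples and 48.9, 39.5, 83.9, 71.2 and 114 in the knockdown samples, with a log2 fold change of -1.06 (SE 0.39, edgeR adjusted p = 0.037) and a two-sided exact permutation p of 0.056. Its value with the glial score was 0.04. The iron exporter Slc40a1 (ferroportin, log2 fold change -0.23), the magnesium carrier Slc41a1 (-0.20) and the zinc carrier Slc30a4 (-0.16) were not called, and Slc30a8, with 0.675 to 7.26 normalized counts over all samples, was too low to compare.

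Inorganic ion carriers were called in both directions. Slc12a2 (NKCC1), the sodium, potassium and chloride cotransporter that sets intracellular chloride, was 8401 to 13775 (median 10145) in the control samples and 8654, 8187, 7803, 8037 and 7351 in the knockdown samples. Control replicate 3 was the only control in the knockdown range. Its log2 fold change was -0.42 (SE 0.12, edgeR adjusted p = 0.021) and its two-sided exact permutation p 0.0065. Slc4a8, a sodium-driven chloride and bicarbonate exchanger of neurons, was higher, at 259 to 558 (median 323) in the control samples and 933, 546, 645, 564 and 527 in the knockdown samples, which gave a log2 fold change of 0.84 (SE 0.21, edgeR adjusted p = 0.014), with control replicate 3 once more the single control in the knockdown range. Slc4a7, a related bicarbonate cotransporter, and the scaffold gene Slc9a3r1 had -0.18 (SE 0.14, edgeR adjusted p = 0.24) and -0.26 (SE 0.15, edgeR adjusted p = 0.12), both not called.

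The remaining classes held 8 genes. Slc35f2, placed by its family number with the nucleotide sugar carriers, was 98.5 to 175 (median 156) in the control samples and 83.4, 86.5, 49.2, 38.3 and 90.4 in the knockdown samples, with no overlap. It had a log2 fold change of -1.03 (SE 0.27, edgeR adjusted p = 0.016), and -1.26 with the glial score as a covariate (edgeR adjusted p = 0.052). Slc14a1, the urea transporter UT-B, which astrocytes also express, was 238 to 604 (median 442) in the control samples and 1067, 1231, 804, 468 and 588 in the knockdown samples, and its log2 fold change of 0.96 (SE 0.27, edgeR adjusted p = 0.018) was opposite to that of Slc1a3 and Slc6a11. Slc5a7, the choline carrier of cholinergic neurons, was low, at 32.4 to 71.2 (median 36.4) against 72.2, 90.7, 62.7, 93.5 and 48.9, with 0.75 (SE 0.28, edgeR adjusted p = 0.038), and was not called with the authors' scaling (0.61, edgeR adjusted p = 0.054). Slc16a13 of the monocarboxylate family was 102 to 299 (median 160.4) in the control samples and 316, 251, 300.1, 256 and 249 in the knockdown samples, with 0.67 (SE 0.25, edgeR adjusted p = 0.04), and control replicate 3 lay among the knockdown samples. It was not called with the sample number range as a covariate (edgeR adjusted p = 0.056). Its relative Slc16a4 had -0.71 (SE 0.32, edgeR adjusted p = 0.071) and did not pass. Slc5a8, a monocarboxylate carrier, was at 0 in 3 of 5 knockdown samples and at 2.81 to 14.5 normalized counts in the controls, and no fold change is given. The hexose carrier Slc2a8 (GLUT8, log2 fold change -0.18) and Slc35a4 (-0.29) were not called.

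Genes that power or accompany the carriers were taken from lists of partners, ABC transporters and amino acid response genes. Of the 8 partners found, 4 were called lower and 3 higher, against 21.3% and 39% of the table. Fxyd6 and Fxyd7, small regulators of the sodium pump, had log2 fold changes of -0.84 and 1.82 (edgeR adjusted p = 0.038 and 0.0057). Their two-sided exact permutation p-values, not adjusted, were 0.097 and 0.0043. The carbonic anhydrase gene Car4 of brain endothelium was lower at -1.58, and Car9 was higher at 0.90. Nptn, a chaperone of monocarboxylate carriers, was higher at 0.31, but was not called with the authors' scaling (0.18, edgeR adjusted p = 0.083). Glul, the glutamine synthetase of astrocytes, had -0.15 and was not called. All 7 ABC transporters of the table had log2 fold changes below 0, against 57.5% of the table, and 4 were called lower, against 21.3%, among them Abcb1a at -0.58 and Abca8a at -1.09. These sets are not separate from the cell type markers. Abcb1a, Abcg2, Abcc9 and Car4 were also counted as vascular markers, and Glul as an astrocyte marker. Of 16 amino acid response genes, which are induced together with several amino acid carriers when amino acids are short, 5 were among the genes analysed, of which Ddit3, Trib3 and Nupr1 were called higher (0.48, 1.03 and 0.46; 39% of the table were), Psat1 was called lower (-0.62) and Phgdh (-0.28) was not called.

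The share of the marker scores in these differences was measured only as a covariate. With the glial score, 1 Slc gene was called lower and 1 higher, against 1.3% and 5.89% of the table (7.19% in either direction), and 8 and 3 had an unadjusted edgeR p-value under 0.05. Of the 16 genes called lower, 14 had a smaller log2 fold change in size in that fit, and so had 9 of the 11 called higher. The score's markers had been selected for a difference in this same comparison, and all had log2 fold changes below 0. The score overlapped between the groups only through control replicate 3, so smaller values and lost calls in that fit were in part built in. With the vascular score edgeR called 0 Slc genes, and 3 were lower and 4 higher at an unadjusted p-value under 0.05. That score did not overlap between the groups and cannot be told apart from the knockdown. The part of glial or vascular cells in the result was not tested beyond these fits.

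**Figure D4:**
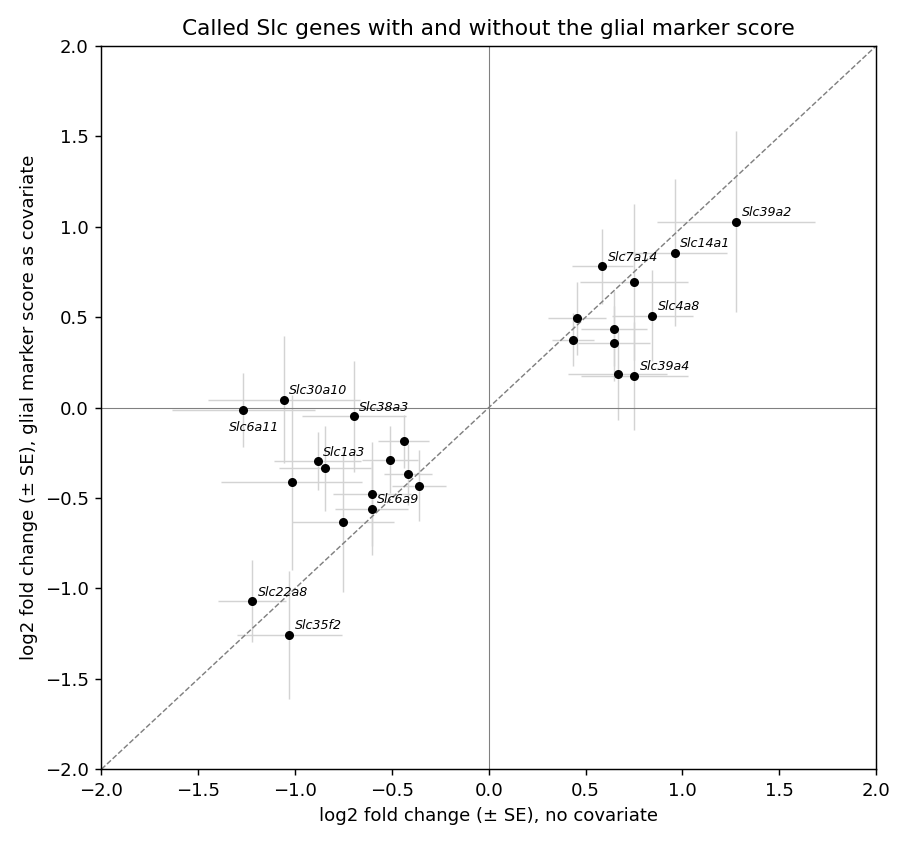
The log2 fold change after adding the glial score as a covariate (y axis) is plotted against that without it (x axis) for 26 called Slc genes, with standard errors as grey lines and equality as a dashed line. Slc6a11 and Slc30a10 lie near 0 on the y axis, at -0.01 and 0.04, whereas Slc22a8 (-1.07) and Slc35f2 (-1.26) lie near the dashed line.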

How the data were processed

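RNA of sorted EmGFP-positive striatal cells was amplified with SMARTer chemistry and sequenced as single reads of 50 bases. Strand NGS served the authors for the analysis, and they deposited estimated counts per gene, which are partly fractional (52.9% whole within 0.001) and not normalized, for genes with a p-value under 0.05. The build is mm9 per the labels, and the aligner and annotation are not given in the sources used here. The authors' deposited log2 values are log2 counts scaled per sample and centred on the gene's median, and were used only to recover the authors' scaling factors (from 1247 genes with over 50 counts in every sample). The deposited p-value, fold change ratio and log2 fold change columns of the authors were not used.

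Estimated counts were rounded and fitted in edgeR 4.0.16 (R 4.3.3) with glmQLFit and glmQLFTest after TMM normalization, with group as the only term. The standard error is the log2 fold change divided by the square root of F. Benjamini-Hochberg adjustment ran over 1767 genes, which had been selected for the same contrast, so TMM, the dispersion trend and all p-values describe the table. Exact permutation tests used log2(normalized count + 0.5). The table sums to 1581757 to 3141324 counts per control sample and 1954949 to 3010153 per knockdown sample, which are not library depths. Of the Slc genes, 39 had a highest count of at least 200 and 4 a mean normalized count under 20. The series' design text gives as many injected mice as samples in each group, without tying a sample to a mouse. No 2 samples of a group agreed within sampling noise (chi-square per degree of freedom 21.4 to 170.2 over 25 pairs).

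The Slc genes, the marker lists and the tests were chosen with earlier results of these data known. All Slc genes could be named, sample values were printed for Slc1a3, Slc22a8, Slc19a1 and up to 3 called genes per class and direction, and other genes come from the lists. 1 Slc gene and 2 partner genes enter every count but are not reported here by name. The fit was tested on simulated counts drawn without selecting genes for a difference, so the simulation does not cover the selection of the table. Alternatives were DESeq2 1.42.0, DESeq2's size factors, the authors' factors, filterByExpr, a highest count of at least 200, the study's thresholds (p under 0.05 and fold above 1.2), a robust fit, the sample number range or a marker score as a covariate, and leaving out each sample.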

Additional observations from a re-analysis of the deposited data

Results flagged for a closer look

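In 94 groups of samples (47 Slc genes in 2 groups) 3 held a sample whose distance from the others exceeded Dixon's 95% value on the log2 scale, and chance alone marks about 1 in 20 groups. NT2 control replicate 3 was the lowest control for Slc6a13, at a normalized count of 58.9 against 121 to 176 in the other controls. The same sample was the lowest control for Slc39a10, at 763 against 1169.8 to 1379.9. YAYC knockdown replicate 6 was the lowest knockdown sample for Slc41a1, at 979.8 against 1163 to 1231.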

How the results depend on the processing

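Under the 7 alternatives without a covariate (DESeq2, its size factors, the authors' factors, both filters, the study's thresholds and the robust fit) none of the 317 values of the Slc genes changed direction, nor did any of the 517 values with a sample left out. The authors' factors raised the Slc genes called lower from 16 to 27 and all listed genes called lower from 377 to 836, and a highest count of at least 200 left 180 of the latter with 1328 genes tested. The glial score as a covariate left 1 Slc gene called lower and 1 higher, and 23 and 104 of all listed genes. That score overlaps between the groups only through control replicate 3. The vascular score left 0 and 0 Slc genes, and 1 and 3 of all listed genes, where the score does not overlap between the groups. Among the genes reported by name, directions changed with the glial score for Slc30a10 (0.0432) and with the vascular score for Slc19a3 (0.28), Slc16a4 (0.21), Slc7a1 (0.11), Slco1a4 (0.35), Slc38a3 (0.0297) and Slc38a2 (0.084), none of them called. The fitted value of Slc7a15 with the vascular score was 1.09, which rests on counts near 0 and is no measure of a change. The cause was not tested.

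With each sample left out in turn, 9 to 18 Slc genes were called lower and 8 to 11 higher, and 208 to 441 and 511 to 680 of all listed genes. Of the 27 called Slc genes, 15 were called in all 11 of these fits (9 lower and 6 higher), and of those reported by name Slc6a13, Slc7a5, Slc38a3, Slc5a7, Slc30a10, Slc39a2, Slc39a4, Slc16a13, Slco1a4, Slc19a3 and Slc25a37 lost their call in at least 1, most of them in 7 or more. The filter at a highest count of 200 ended the calls of Slc30a10, Slc7a5 and Slc38a3 and left Slc35f2 and Slc5a7 untested. No paired analysis was possible because the groups share no sample number. With the sample number range (3 to 10 against 21 to 23) as a covariate 15 Slc genes were called lower and 10 higher, without Slc38a3 and Slc16a13. The depth of the libraries is not given by the table, and counts of a few reads limit Slc7a15, Slc30a8, Slc5a8 and Slco1a1.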
